A study of Mus musculus with 4 samples.

Results

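The 45 genes described here encode the machinery that copies DNA in S phase: origin licensing factors, the replicative helicase, the sliding clamp and its loader, polymerases and primase, enzymes of nucleotide supply, and chromatin and cell cycle factors that act beside them. They were chosen by name and not by a measured value, though with earlier results of these data known. All 45 were found among the 37005 genes or other names on the array and among the 23472 that were tested. RNA of GC-1 cells, a mouse line of spermatogonial origin, was read on 4 one-colour Agilent arrays in Cy3. One group received murine Hdac6, a mostly cytoplasmic deacetylase, on a pCMV plasmid with a CMV promoter and a myc/DDK tag, and the other received the empty vector. Both groups were plain transfections of 1 line in serum-containing medium, harvested 48 h later, with 2 arrays each. The labels do not say whether the arrays of a group came from separate cultures, so the p-values cover no more than the spread among these 4 samples, part of which may be technical. The comparison asks whether the transcripts of the replication machinery differed between cells given Hdac6 and cells given the empty vector.

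Replication is prepared in G1, when the origin recognition complex, Cdc6 and Cdt1 load the MCM helicase onto DNA. At S phase entry the helicase is activated by Cdc45 and the GINS complex, primase and DNA polymerase alpha lay down primers, and polymerases delta and epsilon extend them on the clamp PCNA. Many of these genes are known targets of E2F transcription factors, which are held back by the retinoblastoma family until cyclin-dependent kinases release them, so their transcripts are widely used as a readout of cycling cells.

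The promoters of these genes carried E2F-type words more often than promoters at large, and some are shown here because a shared regulator is the usual reason to read these genes as a group. RefSeq promoters of build GRCm38.p6, from 250 bases before to 50 after the start, were on hand for 36 members (41 promoters). Ccne2, Gins1, Gins2, Gins4, Gmnn, Mcm4, Pole, Prim2 and Rfc2 had none in the table. The words TTTCCCGC, TTTCGCGC, TTTGCCGC and TTTGGCGC were searched on both strands. At least 1 word was found in 13 of 36 members (36.1%), against 2.60% of 27025 genes with a promoter. The word CCAAT, searched on both strands, was found in 63.9% of members and 41.1% of genes, and TATAAA in 5.56% and 15.7%. A match is a description of the letters and was not tested as a binding site. The lines below give 5′ to 3′ stretches on the gene's strand, with E2F words in capitals. Where 2 words overlap on opposite strands they form a single longer run.
Mcm5, chr8:75109346-75109405, plus strand: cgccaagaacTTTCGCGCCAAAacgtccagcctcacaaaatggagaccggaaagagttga
Mcm6, chr1:128359735-128359825, minus strand: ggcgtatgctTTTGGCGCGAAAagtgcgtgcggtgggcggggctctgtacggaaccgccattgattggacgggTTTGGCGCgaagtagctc
Cdc6, chr11:98908003-98908062, plus strand: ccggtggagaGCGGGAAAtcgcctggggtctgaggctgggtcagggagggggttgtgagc
Gins3, chr8:95633499-95633558, plus strand: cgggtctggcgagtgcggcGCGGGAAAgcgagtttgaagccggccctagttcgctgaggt
Pola1, chrX:93632244-93632303, minus strand: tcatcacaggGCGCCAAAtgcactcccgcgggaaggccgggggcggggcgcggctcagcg
Uhrf1, chr17:56304118-56304177, plus strand: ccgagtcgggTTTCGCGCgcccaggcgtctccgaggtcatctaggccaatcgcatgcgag
The other members with a word were Cdt1, Lig1, Mcm3, Mcm7, Orc1, Pold1 and Rfc3. Mcm6 held 3 words, of which 2 overlap, and Mcm5 held 2 that overlap. Mcm3, Mcm7 and Rfc3 held 2 each.

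No member of the replication set passed the test between the groups, which judges each gene by its own arrays and by the spread of probes at like signal. By limma's moderated test, adjusted by Benjamini-Hochberg over the 35215 probes tested, 0 of 45 members changed at an adjusted p under 0.05, and 0 had an unadjusted p under 0.05. Over all genes tested, 0.00852% changed (2 genes; 0.0114% of probes) and 1.85% had an unadjusted p under 0.05. The smallest unadjusted p of a member was 0.124 and its adjusted p was 1.00, as was the adjusted p of every other member in limma. The test gave bounds as well, for the brightest probe of each member. All 45 of these intervals of 95% held 0. All 45 lay within a 2-fold change either way, from a lower limit of 0.512-fold to an upper limit of 1.94-fold. The bounds do not cover the dimmer probes. Some of those had intervals that passed 2-fold, such as 0.577 to 2.89 and 0.404 to 1.49 for dimmer probes of Pola2. Of the members, 24 were on the higher side with the Hdac6 vector and 21 on the lower side, against 49.9% higher among all genes. The median log2 fold change was 0.02 and the members ran from -0.30 to 0.41, with a median size of 0.11 against 0.17 for all genes. The count of members on the higher side hung on single arrays, being 36 without the first Hdac6 vector array (median 0.25), 11 without the second (median -0.16), 31 without the first empty vector array and 17 without the second. In 28 members the 2 empty vector arrays differed by more than the groups did.

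Levels below are log2 processed intensity minus the 75th percentile of the array, in the order empty vector 1, empty vector 2, Hdac6 vector 1, Hdac6 vector 2, and fold changes are Hdac6 vector over empty vector for the brightest tested probe of the gene. All 45 of these probes were well above background on all 4 arrays. Both Hdac6 vector arrays lay above both empty vector arrays in 4 members (8.89%) against 12.1% of all genes, and below them in 3 members (6.67%) against 13.6%. The groups overlapped in the other 38. Members kept apart were therefore no more frequent than among genes at large.

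**Figure D1:**
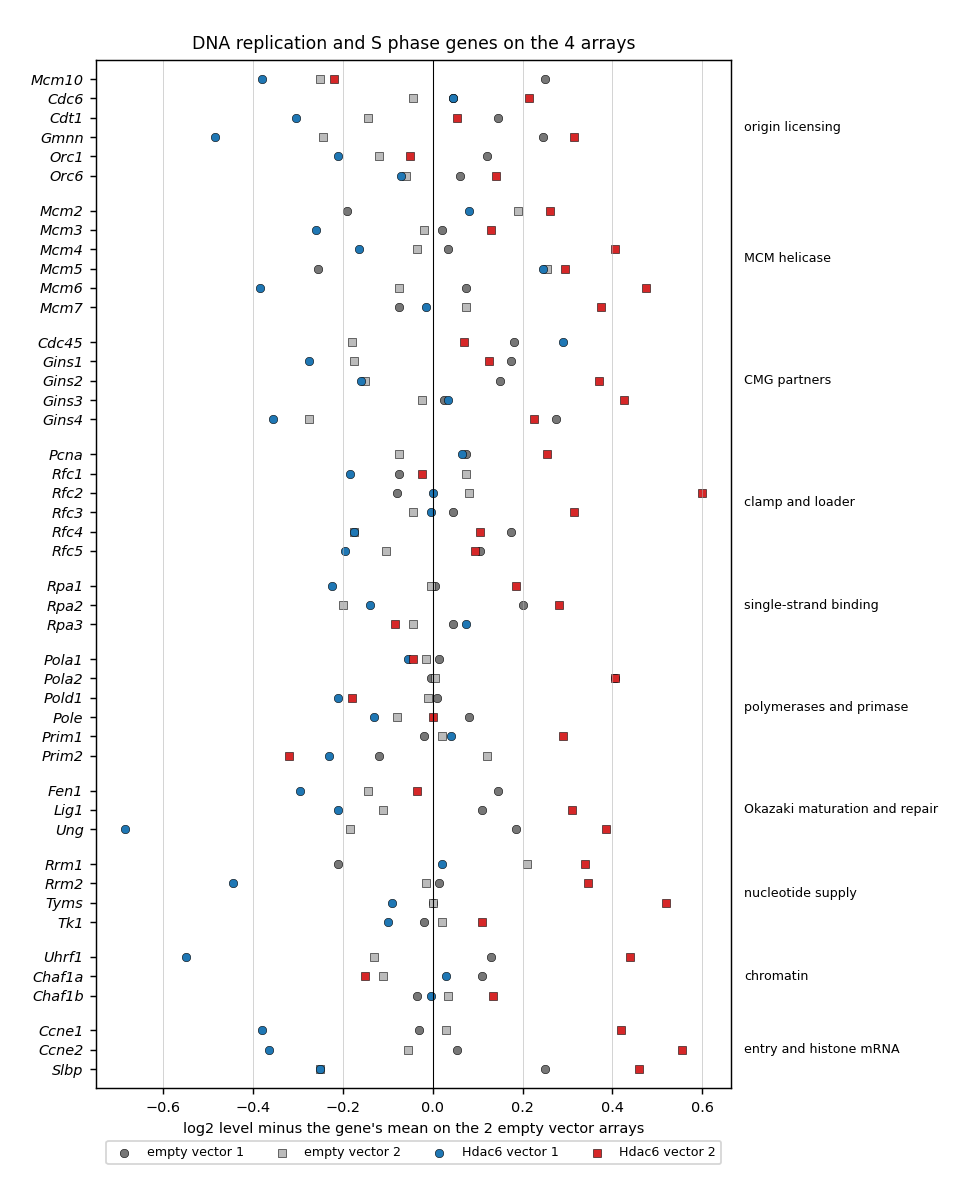
Log2 level of each gene on each of the 4 arrays, minus the mean of the gene's 2 empty vector arrays (x axis), with genes in rows by role. Single points are single arrays. The second Hdac6 vector array (red squares) is the highest of the 4 in 28 of 45 genes and the first (blue circles) is the lowest in 27, so the arrays of 1 group often lie on opposite sides of the controls.

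**Figure D2:**
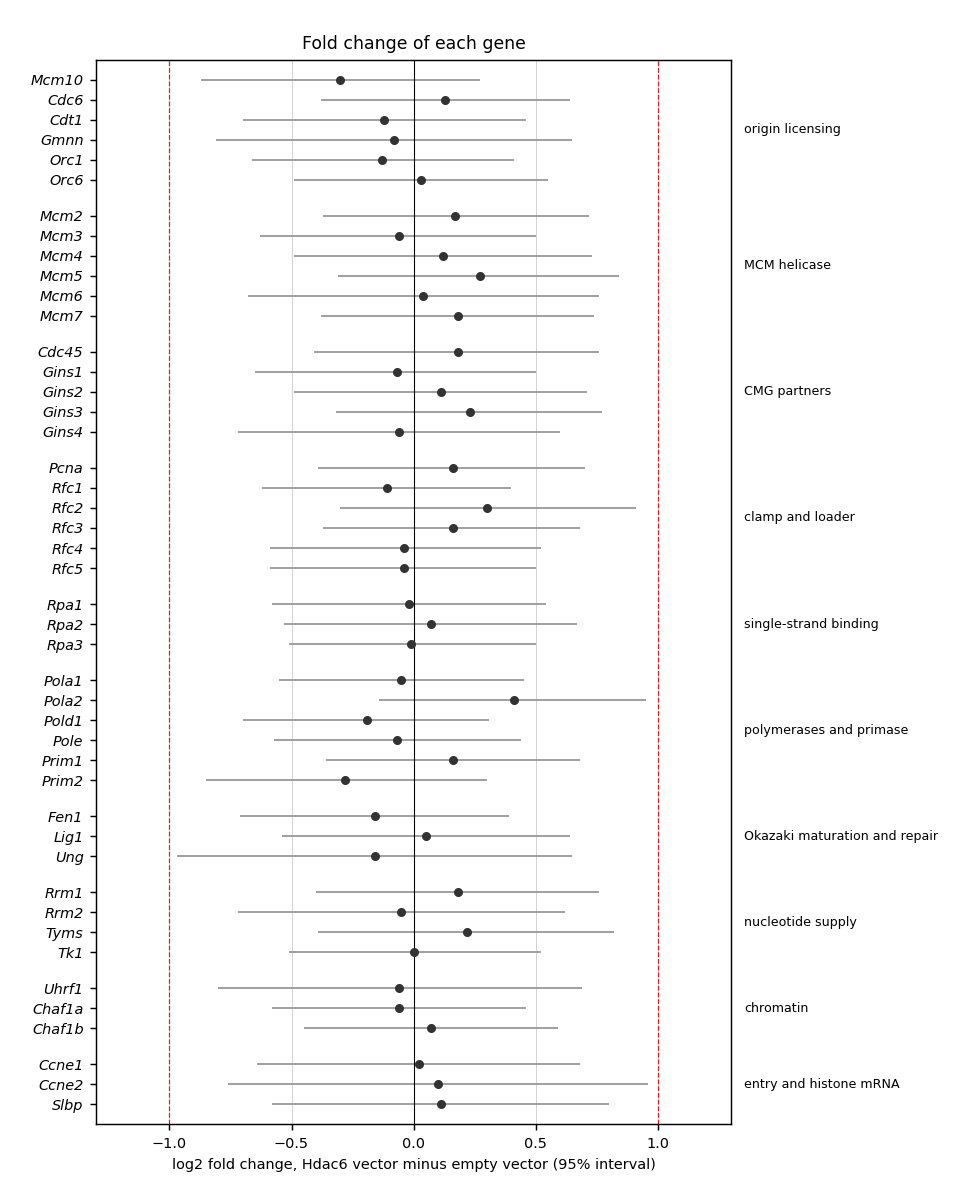
Log2 fold change of each gene by its brightest probe, Hdac6 vector minus empty vector (points). Lines are the 95% interval of the limma fit, with 2 arrays a group. Dashed red lines mark a 2-fold change either way. All 45 intervals hold 0 and none reaches the dashed lines.

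Origin licensing genes were mostly on the lower side, 2 of 6 being higher, of which Orc6 turned lower with normexp correction and median scaling. The number higher was 4 without the first empty vector array or the first Hdac6 vector array, and 1 without the second empty vector array or the second Hdac6 vector array. Mcm10 was placed in this group here, though it links the helicase to primase and polymerase alpha. It read 3.42, 2.92, 2.79 and 2.95, a 0.815-fold level (95% interval 0.549 to 1.21, log2 -0.30, SE 0.25). The first empty vector array stood above the other 3, which lay close together, and the groups overlapped. Cdc6, the ATPase that helps ring the helicase onto DNA, read 2.14, 2.05, 2.14 and 2.31. The groups of Cdc6 did not overlap, but the gap between them was 0.003 on the log2 scale, and the fold was 1.10 (0.771 to 1.56). Cdt1, the loader that Cdc6 works with, was at 0.920-fold and its inhibitor geminin (Gmnn) at 0.943-fold. Gmnn read 5.95, 5.46, 5.22 and 6.02, so that each group held a high and a low array. Orc1 and Orc6, subunits of the origin recognition complex, were at 0.916-fold and 1.02-fold.

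The MCM helicase subunits leaned the other way, with 5 of 6 on the higher side and none past the test, though Mcm6 turned lower with quantile and median scaling. Without the second Hdac6 vector array 2 of 6 were higher, and without the first Hdac6 vector array all 6. Mcm5 read 3.86, 4.37, 4.36 and 4.41, a 1.20-fold level (0.809 to 1.79, log2 0.27, SE 0.25, unadjusted p = 0.317 in limma). Its first empty vector array was low by 0.51 against the second, which lay between the Hdac6 vector arrays, and the groups overlapped. The folds of the others were 1.13 for Mcm2, 0.956 for Mcm3, 1.09 for Mcm4, 1.03 for Mcm6 and 1.13 for Mcm7. Mcm6 read 7.03, 6.88, 6.57 and 7.43, with the Hdac6 vector arrays on either side of both controls. All 6 subunits were highest on the second Hdac6 vector array. The spread in Mcm6 left its interval at 0.626 to 1.70, wider than that of any other subunit.

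Cdc45 and the GINS genes complete the active helicase, and 3 of 5 were on the higher side (5 without the first empty vector array or the first Hdac6 vector array, 1 without the second empty vector array, 2 without the second Hdac6 vector array). Gins3 read 4.16, 4.11, 4.17 and 4.56, a 1.17-fold level (0.803 to 1.71, log2 0.23, SE 0.24). Its groups did not overlap, by a gap of 0.009, and only the second Hdac6 vector array stood clear of the rest. Cdc45 read -0.14, -0.50, -0.03 and -0.25 and was at 1.13-fold with overlapping groups. Gins1, Gins2 and Gins4 were at 0.950-fold, 1.08-fold and 0.959-fold. In all 3 the second empty vector array and the first Hdac6 vector array were the low ones.

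The clamp Pcna and its loader, replication factor C, split evenly, with 3 of 6 higher, and with normexp correction Rfc4 and Rfc5 turned higher as well. The number higher was 5 without the first empty vector array or the first Hdac6 vector array, and 1 without the second Hdac6 vector array. Pcna read 6.37, 6.22, 6.36 and 6.55, a 1.11-fold level (0.763 to 1.63) with overlapping groups. Rfc2, a small loader subunit, read 3.71, 3.87, 3.79 and 4.39. This made 1.23-fold (0.810 to 1.88, log2 0.30, SE 0.27), and it came from the second Hdac6 vector array, since the first lay between the controls. Rfc1, the large subunit, was at 0.929-fold, Rfc3 at 1.12-fold, Rfc4 at 0.974-fold and Rfc5 at 0.971-fold. The 3 subunits of replication protein A, which coats single-stranded DNA, had small differences by their brightest probes, and Rpa2 (median scaling) and Rpa3 (quantile) turned sign with the scaling. Of the 3, 1 was higher, against 2 without the first empty vector array or the first Hdac6 vector array and 0 without the second empty vector array. Rpa2 read 1.20, 0.80, 0.86 and 1.28, a 1.05-fold level (0.692 to 1.59), with a high and a low array in each group. In the authors' deposited table Rpa2 read 2.14, 1.71, -1.86 and 2.05, a log2 difference of -1.83 that came from the first Hdac6 vector array. That table holds 1 row per gene name and is not a reading of the brightest probe. A second, dim Rpa2 probe in the scanner files read -7.93, -7.40, -6.42 and -7.68 and was well above background on 1 array. Its part in the deposited values was not tested. Rpa1 was at 0.985-fold and Rpa3 at 0.995-fold.

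Polymerase and primase genes held 5 of the 7 members whose groups did not overlap, and they went both ways. Pola2, the accessory subunit of polymerase alpha, read -0.64, -0.63, -0.23 and -0.23. The arrays of each group lay within 0.01 of each other and the groups were 0.402 apart. Pola2 had the highest fold of the 45 members, 1.33 (0.910 to 1.94, log2 0.41, SE 0.24, unadjusted p = 0.124 and adjusted p = 1.00 in limma). The interval still held 1, because the fit borrows the spread of probes at like signal. Prim1, the catalytic primase subunit, read 4.12, 4.16, 4.18 and 4.43, a 1.12-fold level (0.780 to 1.60) whose groups were 0.016 apart. The other direction held the remaining 3. Prim2, the large primase subunit, read -0.73, -0.49, -0.84 and -0.93, a 0.824-fold level (0.554 to 1.23, log2 -0.28, SE 0.25). Pold1, the catalytic subunit of polymerase delta, read 4.73, 4.71, 4.51 and 4.54, with close arrays in each group and 0.170 between the groups. Its fold was 0.874 (0.616 to 1.24, log2 -0.19, SE 0.22). Pola1, the catalytic subunit of polymerase alpha, read 2.13, 2.10, 2.06 and 2.07, a 0.965-fold level (0.684 to 1.36) with a gap of 0.029. By their brightest probes, the subunits of polymerase alpha and of primase, which work as 1 complex, did not share a direction. None of them passed the test. The dimmer probes of Pola1 and Prim2 had log2 fold changes of 0.23 and -0.00, and those of Pola2 are given below. Pole, the catalytic subunit of polymerase epsilon, was at 0.956-fold with overlapping groups. In the authors' deposited table Pole read -0.04, -0.17, 0.09 and 2.33, a log2 difference of 1.31 that came from the second Hdac6 vector array. A dim Pole probe in the scanner files read -6.42, -5.98, -5.36 and -7.08 and was well above background on 3 arrays. Its part in the deposited values was not tested.

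Pola2 and Pold1 are the members whose arrays grouped most cleanly, and the probes behind them are given with the mm9 positions of the files. The positions were not set against exons or introns, because no gene model of that build was used here. Pola2 had 4 tested probes. The brightest, listed by a RefSeq accession, and 1 listed by the cDNA BC006945 were higher with the Hdac6 vector, and the 2 listed by the cDNA AK045325 were lower. The sequences are whole for the brightest probes, and the first 30 bases for the AK045325 probes.
Pola2, brightest, chr19:5946484-5946543, minus strand: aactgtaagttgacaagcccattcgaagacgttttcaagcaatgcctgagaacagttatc
Pola2, AK045325, chr19:5956681-5956740, minus strand: aggtcccgtgattgggtttcatccttaatt
Pola2, AK045325, chr19:5956741-5956800, minus strand: cctgagcaagacattgtctttcctgttagt
Pold1, brightest, chr7:51788221-51788589, minus strand, in blocks within that span: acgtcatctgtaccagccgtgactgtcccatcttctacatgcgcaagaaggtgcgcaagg
The AK045325 probe at chr19:5956681-5956740 read -0.89, -0.60, -0.37 and -1.66, a log2 fold change of -0.27. The adjoining one read -1.26, -1.03, -0.84 and -2.18, a log2 fold change of -0.36. Both were lowest on the second Hdac6 vector array and highest on the first, so neither showed the tight groups of the brightest probe. The BC006945 probe was dim, at -5.98, -5.10, -4.49 and -5.86, with a log2 fold change of 0.37. The direction for Pola2 thus depended on the probe, and no Pola2 probe passed the test. As a mean over its probes Pola2 had a log2 fold change of 0.03.

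Genes of Okazaki fragment maturation and repair were near the controls, 1 of 3 being higher, namely Lig1, which turned lower with median scaling. Without the first empty vector array or the first Hdac6 vector array 2 were higher, and without the second empty vector array or the second Hdac6 vector array 0. Fen1, the flap endonuclease, read 5.44, 5.15, 5.00 and 5.26, a 0.895-fold level (0.610 to 1.31), and its groups overlapped. Lig1, the ligase that seals the fragments, was at 1.04-fold. Ung, the uracil-DNA glycosylase that removes uracil from new DNA, read 6.45, 6.08, 5.58 and 6.65. Its fold was 0.897, and its interval was the widest on the low side of all members (0.512 to 1.57, log2 -0.16, SE 0.36).

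The single Ung probe differs from the others in its letters. It lies at chr5:114588731-114588790 on the plus strand (mm9), and 34 of its 60 bases are an unbroken GT repeat. Bases 21 to 50 are shown with the repeat in capitals.
Ung probe: ttcaaaGTGTGTGTGTGTGTGTGTGTGTGT
A simple repeat of at least 20 bases was found in 0.226% of 56605 probes, and the longest one in the brightest probe of any other member was 7 bases. Among the tested probes, 47 others carried a GT run of at least 20 bases. All 47 were higher on the second Hdac6 vector array than on the first, by a median log2 difference of 0.94 (range 0.70 to 1.21), and Ung differed by 1.07. The median over all tested probes was 0.14. With quantile normalization all 47 were still higher on the second array, by a median of 0.55, and Ung by 0.63. The 26 probes with an AC run of at least 20 bases, the complement, went the other way, with a median of -0.28 and 4 of 26 higher. The levels of Ung therefore moved over the arrays with those of other GT-repeat probes, and how much of its signal came from the Ung transcript was not tested. Without Ung the median log2 fold change of the members stayed at 0.02.

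Genes of nucleotide supply were mostly on the higher side, 3 of 4, of which Tk1 turned lower with median scaling. Only 1 was higher without the first empty vector array or without the second Hdac6 vector array. Tyms, the thymidylate synthase, read 4.38, 4.38, 4.29 and 4.90, a 1.16-fold level (0.766 to 1.77, log2 0.22, SE 0.26). Only its second Hdac6 vector array stood away from the controls. The ribonucleotide reductase subunits Rrm1 and Rrm2 were at 1.13-fold and 0.967-fold. Rrm2 read 5.11, 5.08, 4.65 and 5.44, with 1 Hdac6 vector array well below the controls and the other well above. Tk1, the thymidine kinase of the salvage route, was at 1.00-fold (0.703 to 1.43). In the authors' deposited table Tk1 read 0.93, 0.09, 1.37 and 1.33, a log2 difference of 0.84. That table holds 1 row per gene name and is not a reading of the brightest probe. A dim Tk1 probe in the scanner files, at -7.66, -5.92, -6.59 and -8.25, was well above background on 1 array. Its part in the deposited values was not tested.

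Chromatin factors of the fork were close to the controls, with 1 of 3 higher, Chaf1b, which turned lower with median scaling. Without the first empty vector array all 3 were higher, and without the first Hdac6 vector array 2. Chaf1b, a subunit of the histone chaperone CAF-1, read 5.54, 5.61, 5.57 and 5.71, a 1.05-fold level (0.730 to 1.51). Chaf1a, its partner, was at 0.960-fold. Uhrf1, which brings the maintenance DNA methyltransferase to new DNA, was at 0.962-fold, and read 4.19, 3.93, 3.51 and 4.50. Its Hdac6 vector arrays lay 0.99 apart on either side of the controls. The cyclins E and Slbp were all 3 on the higher side by small amounts, except that Ccne1 turned lower with median scaling. Without the second Hdac6 vector array all 3 were lower, with log2 fold changes of -0.38 for Ccne1, -0.36 for Ccne2 and -0.25 for Slbp. Slbp, the histone stem-loop binding protein, read 3.16, 2.66, 2.66 and 3.37, a 1.08-fold level (0.670 to 1.74, log2 0.11, SE 0.30). Ccne1 read 2.25, 2.31, 1.90 and 2.70, a 1.01-fold level. Ccne2 read -3.94, -4.05, -4.36 and -3.44, a 1.07-fold level (0.590 to 1.94). For each of these 3 genes the second Hdac6 vector array was the highest of the 4. Array levels of Ccne1, Ccne2, Gmnn, Mcm6, Pcna, Rrm2, Uhrf1, Ung and Cdc45 go beyond the naming rule and were picked with their values in view.

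The main pattern in these genes was a difference between arrays of the same group. The second Hdac6 vector array was above the first in 40 of 45 members (88.9%) against 67.1% of 23464 genes, by a median log2 difference of 0.32 against 0.19. It was the highest of the 4 arrays in 28 members (62.2% against 38.8%), and the first was the lowest in 27 of 45 (against 37.7% of all genes). The first empty vector array was above the second in 33 members, by a median of 0.09 against 0.00 for all genes. The largest gaps between the Hdac6 vector arrays after Ung were in Uhrf1 (0.99), Ccne2 (0.92), Mcm6 (0.86), Ccne1, Rrm2 and Gmnn (0.80 each) and Slbp (0.71). The 2 Hdac6 vector arrays also differed in signal, with a 75th percentile of processed intensity of 1279 on the first and 717 on the second. Its part in the pattern was not tested.

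How far members stood apart from other genes depended on the scaling. With quantile normalization the median gap between the Hdac6 vector arrays was 0.06 in members and 0.07 in all genes, and 27 of 45 members were higher on the second. The members highest on the second array numbered 19 (42.2% against 30.1%), and those lowest on the first 12 (26.7% against 30.6%). Single genes kept part of their gap, Ccne2 (0.88), Uhrf1 (0.75), Ccne1 (0.68) and Slbp (0.54) more of it than Rrm2 (0.48), Gmnn (0.41) and Mcm6 (0.38). With normexp background correction the median gap was 0.25 in members and 0.32 in all genes. With median scaling the excess in members stayed, at a median gap of 0.25 against 0.12, with 37 of 45 members higher on the second array (82.2% against 61.9%) and 48.9% against 26.9% highest on it.

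**Figure D3:**
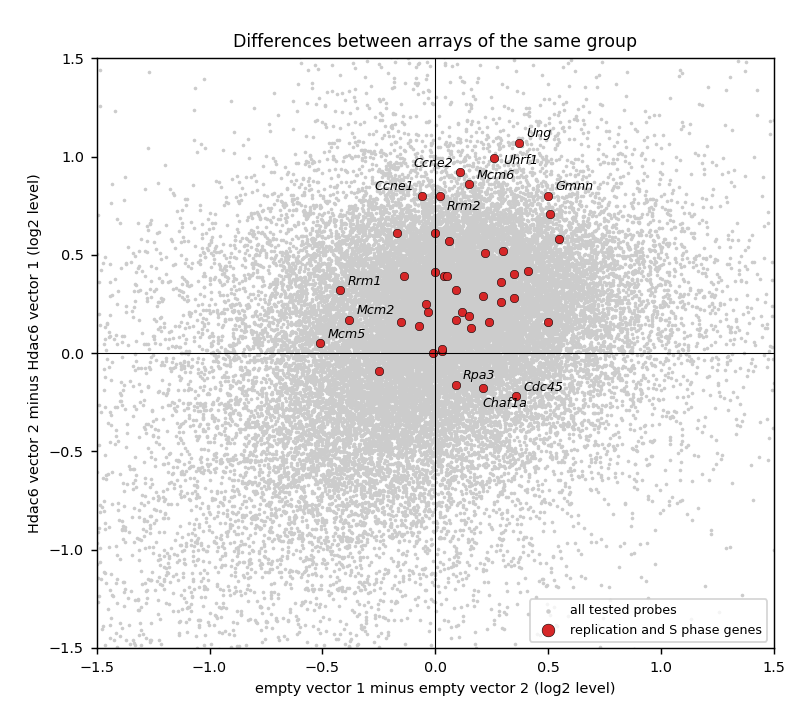
Difference in log2 level between the 2 empty vector arrays (x axis, first minus second) and the 2 Hdac6 vector arrays (y axis, second minus first), for all tested probes (grey) and the 45 genes by their brightest probe (red). The axes stop at 1.5 either way, and some grey points lie beyond. In 40 of 45 genes the point is above the horizontal line, and Ung, Uhrf1 and Ccne2 are the highest.

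Across groups, the second empty vector array and the first Hdac6 vector array were the closest pair. Their members differed by a median of 0.116 in log2 level, against 0.161 between the empty vector arrays and 0.316 between the Hdac6 vector arrays. Over the 32594 probes well above background on all arrays, 0.611% differed at least 2-fold in that pair and 3.79% to 6.84% in the other 5. The groups as labelled were kept throughout.

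Several members have more than 1 probe. The probes of a gene can be listed by different transcripts of the locus, and 1 Gmnn probe, listed by AK131677, lies on the strand opposite to the others, so they are not repeat readings of 1 transcript. Of 86 member probes, 83 were tested, and 24 members had several. None of the 83 passed the adjusted threshold in limma. Of 38 dimmer probes, 20 shared the sign of the gene's brightest probe, and in 11 of the 24 members all tested probes had 1 sign. The dimmer probe was on the higher side of the brightest in 26 of 38 cases (68.4%), by a median difference of 0.18 in log2 fold change, and over all 7666 genes with several tested probes this was so for 66.4%, by 0.11. Tk1 shows it best. Its brightest probe had a log2 fold change of 0.00, and the other 3 tested probes had 0.34, 0.48 and 0.28. The probe at 0.48 read -0.18, 0.42, 0.62 and 0.58, with the first empty vector array alone below the rest.

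Dimmer probes of the helicase genes Mcm3, Mcm6 and Mcm7 were mostly, but not all, on the higher side of the brightest. A second Mcm7 probe was at 0.39 where the brightest was at 0.18, and Mcm3 had probes at -0.20, 0.36 and 0.15 beside its brightest at -0.06. Mcm6 is shown by sequence because its probes sit at separate places of the locus and gave different array orders. The first 30 bases are given for the brightest and all 60 for the dimmer one.
Mcm6, brightest, chr1:130228178-130228237, minus strand: ctgtggaaattgctttcttctgttcccagc
Mcm6, dimmer, chr1:130237911-130237970, minus strand: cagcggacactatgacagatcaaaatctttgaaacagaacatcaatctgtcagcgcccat
The dimmer Mcm6 probe read -0.15, -0.32, 0.03 and 0.17, both Hdac6 vector arrays above both controls, with a log2 fold change of 0.33 (0.862-fold to 1.84-fold). The brightest probe had the Hdac6 vector arrays on either side of the controls and a log2 fold change of 0.04.

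**Figure D4:**
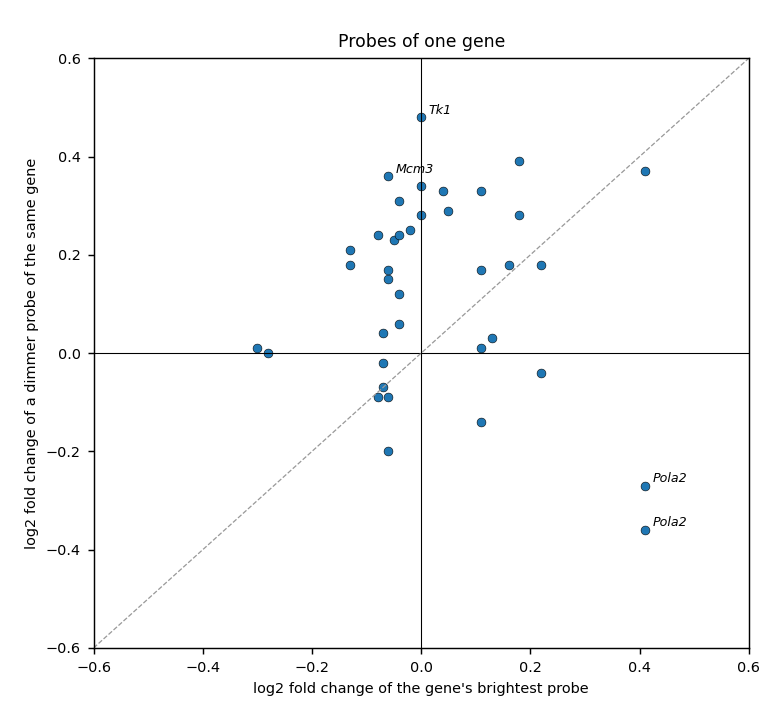
Log2 fold change of the brightest tested probe of a gene (x axis) against that of each dimmer tested probe of the same gene (y axis), for 38 probes of 24 genes. The dashed line marks equal values. Points lie above the line in 26 of 38 cases, and the 2 Pola2 probes listed by AK045325 lie far below it.

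Members with and without an E2F word did not stand apart in their fold changes. Of the 13 with a word, 7 were higher, with a median log2 fold change of 0.04 and a range of -0.19 to 0.27. Of the 23 whose promoter held none, 13 were higher, with a median of 0.02. Of the members whose promoters held several words, Mcm5 was at 0.27, Mcm7 at 0.18, Rfc3 at 0.16, Mcm6 at 0.04 and Mcm3 at -0.06.

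Other genes of replication did not pass the test between the groups either. In a list of 44 further replication genes, such as the remaining origin recognition subunits, the Dbf4-dependent kinase and the fork protection complex, all 44 were tested and 0 changed, with 21 higher, 23 lower and a median log2 fold change of -0.03 (12 higher and a median of -0.19 without the second Hdac6 vector array). The lowest were Dna2, a nuclease of Okazaki fragments, at 0.689-fold (0.390 to 1.22) and Pold4, the small subunit of polymerase delta, at 0.786-fold (0.527 to 1.17). Dna2 read -0.80, -1.71, -2.06 and -1.53, with the first empty vector array alone above the rest. The highest were Wdhd1, which ties the helicase to polymerase alpha, at 1.18-fold (0.730 to 1.92) and Pole2, a subunit of polymerase epsilon, at 1.25-fold (0.807 to 1.93). These 44 genes showed the array pattern of the members only in part. The second Hdac6 vector array was the highest in 34.1% (against 38.8% of all genes) and above the first in 70.5% (against 67.1%). The first was the lowest in 52.3% (against 37.7%).

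The list of E2F and S phase entry genes leaned to the lower side without passing the test. It mixes genes that promote entry with genes that hold it back, such as the retinoblastoma family, so its median does not measure entry. All 27 genes of the list were tested and 0 changed, with 11 higher and 16 lower. The median log2 fold change was -0.13 against 0.00 for all genes, and it was -0.02 as a mean over probes. The lowest were E2f4, a mainly repressive E2F, at 0.738-fold (0.440 to 1.24) and cyclin A2 (Ccna2), which drives S phase with Cdk2, at 0.787-fold (0.520 to 1.19). Cdk2, the kinase partner of cyclin E, was at 1.19-fold (0.810 to 1.75), and cyclin D2 (Ccnd2) at 1.24-fold (0.713 to 2.17). Ccnd2 read 3.76, 4.89, 4.57 and 4.71, the first empty vector array standing alone below the rest. The array pattern of the members was not seen in this list. The second Hdac6 vector array was the highest in 22.2% (against 38.8% of all genes) and above the first in 55.6% (against 67.1%). The first was the lowest in 37.0% (against 37.7%).

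Checks of the arrays bear on all of these values. The arrays had 61.0% to 66.4% of spots well above background and no saturated spot. The single Hdac6 probe was at 0.906-fold (0.579 to 1.42) with the Hdac6 vector. Neither the labels nor the file headers say whether the plasmid's insert holds the bases under that probe, so it does not check the transfection. Of 20 spermatogonial markers, 12 were well above background on all 4 arrays, among them Zbtb16, Sall4 and Dmrt1, while Dazl, Ret, Kit and Thy1 were on none. Of 10 Sertoli cell markers 8 were well above background on all 4 arrays, Sox9 and Wt1 among them, while Amh was on none. All 9 of peritubular cells and fibroblasts were well above background on all 4 arrays. Of the 5 Leydig cell markers on the array, Cyp17a1 alone was above background on all 4 arrays, and Hsd3b1 and Lhcgr were on none. Of the 6 macrophage and leukocyte markers, 5 were above background on all 4 arrays, and Adgre1 was on none. The log2 of the summed level of these 5 was 4.11, 3.41, 3.18 and 2.94, in the array order used above. The same sum was 6.42, 5.70, 5.64 and 6.18 for the 12 spermatogonial markers. It was 8.06, 7.72, 7.54 and 8.06 for the 8 Sertoli cell markers. For the 9 of peritubular cells and fibroblasts it was 7.51, 7.85, 7.72 and 7.82. In bulk RNA, a different share of cells in S phase and a different amount of RNA of these genes per cell cannot be told apart.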

How the data were processed

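Per the labels' protocols, total RNA from 4 samples of transfected GC-1 cells was copied with oligo-dT, labelled with Cy3 and hybridised to Agilent mouse 8x60k arrays. Per the file headers, the deposited spot intensity was extracted with Feature Extraction 11.5.1.1 (Agilent Feature Extraction is also named in the submitters' processing notes), background-subtracted and detrended, and probe positions are in mm9. The authors also deposited a table of log2 values with 1 row per gene name, used only as an alternative. Its making is not described in the labels or headers.

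Spots of 1 probe were averaged as log2 values, leaving 56605 probes that are not controls, and the 75th percentile of each array was subtracted. A probe was tested if the scanner software flagged it well above background on both arrays of at least 1 group. The groups were compared with limma 3.58.1 in R 4.3.3 (lmFit, eBayes with trend, two-sided, Benjamini-Hochberg over all 35215 tested probes, 2 residual and 6.68 prior degrees of freedom), after a check on simulated data. The number of arrays limits the precision. The brightest tested probe stands for a gene.

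All members are named, by role. Values on every array are given where the groups do not overlap and for the member with the largest absolute log2 fold change in each role. Of the other lists, the 2 highest and 2 lowest are named. The members and lists were chosen with earlier results of these data known. Alternatives tried were normexp (offset 50), quantile and median scaling, other filters, no trend, the authors' table, the mean over a gene's probes, a replicate block, and leaving out each array.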

Additional observations from a re-analysis of the deposited data

How the results depend on the processing

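No member changed (adjusted p under 0.05 in limma) under any alternative that was fitted, and the mean over a gene's probes was taken as a value with no test. The sign of the log2 fold change held under all alternatives, that mean included, in 11 of 45 members: Cdc6, Fen1, Gins3, Mcm10, Mcm5, Pcna, Pola2, Pold1, Prim1, Prim2 and Rfc1. The number of changed probes, 4 as reported, was 26 with normexp, 2 with quantile normalization, 0 with median scaling, 2 without the trend, 19 in the authors' table, and 0 to 332 with 1 array left out (332 without the second empty vector array, 15 without the first, 0 without either Hdac6 vector array). With 1 array left out a group rests on a lone array, which is assumed to vary like the others. With the replicate number as a block it was 5, and with the crossed block, added after seeing the data, 36. Same-numbered arrays deviated from their group means with a correlation of -0.356, so the numbers were not taken to pair the samples, and no call on a member changed with either block. With an array left out, 11 to 36 members were higher, with a median log2 fold change of -0.16 to 0.25. For the further replication genes it was 12 to 27 and -0.19 to 0.07, and 12 were higher with median scaling, which moves the median of all genes to -0.09. The median of the E2F and entry genes was -0.06 with normexp, -0.08 with quantile, -0.22 with median scaling (6 higher) and -0.02 as a mean over probes. The cause of these shifts was not tested.

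Members that turned sign with the scaling, the mean over probes or the deposited table did so from small values. With an array left out, some larger values turned as well, such as the 0.30 of Rfc2. With normexp these were Orc6 (-0.05), Rfc4 (0.05) and Rfc5 (0.06), and with quantile normalization Mcm6 (-0.04) and Rpa3 (0.04). With median scaling they were Chaf1b and Rpa2 (-0.02), Lig1 and Mcm6 (-0.04), Orc6 (-0.05), Ccne1 (-0.07) and Tk1 (-0.08). As a mean over probes they were Gmnn (0.02, with a probe on the opposite strand), Mcm3 and Uhrf1 (0.06), Orc1 and Pola1 (0.09), Rfc4 and Rfc5 (0.11) and Rpa1 (0.12). In the authors' deposited table they were Chaf1b (-0.01), Orc6 and Slbp (-0.04), Ccne1 (-0.06), Orc1 and Pola1 (0.01), Rfc4 and Rfc5 (0.03), Rpa1 (0.04), Rpa2 (-1.83) and Pole (1.31). Rpa2 and Pole have a further dim probe in the scanner files that was well above background on some arrays only. So has Tk1, which kept its sign in that table at 0.84.

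With 1 array left out, the ranges of members that turned sign were -0.38 to 0.42 (Ccne1), -0.36 to 0.56 (Ccne2), 0.00 to 0.36 (Cdc45), -0.30 to 0.06 (Cdt1), -0.17 to 0.05 (Chaf1a), 0.00 to 0.14 (Chaf1b), -0.27 to 0.12 (Gins1), -0.15 to 0.37 (Gins2), -0.35 to 0.23 (Gins4), -0.49 to 0.32 (Gmnn), -0.21 to 0.31 (Lig1), -0.02 to 0.36 (Mcm2), -0.26 to 0.13 (Mcm3), -0.16 to 0.41 (Mcm4), -0.38 to 0.47 (Mcm6), -0.02 to 0.37 (Mcm7), -0.07 to 0.14 (Orc6), -0.15 to 0.02 (Pole), 0.00 to 0.61 (Rfc2), 0.00 to 0.32 (Rfc3), -0.21 to 0.14 (Rfc4), -0.19 to 0.10 (Rfc5), -0.23 to 0.19 (Rpa1), -0.14 to 0.28 (Rpa2), -0.09 to 0.07 (Rpa3), -0.03 to 0.39 (Rrm1), -0.45 to 0.35 (Rrm2), -0.25 to 0.47 (Slbp), -0.10 to 0.11 (Tk1), -0.09 to 0.52 (Tyms), -0.55 to 0.44 (Uhrf1) and -0.69 to 0.38 (Ung). Values of 0.00 there lie just below 0.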
